A study of Mus musculus with 12 samples.

Results

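The genes described here are the potassium channel genes of the mouse: the autosomal protein-coding genes whose symbol starts with Kcn, without Kcnq1 and Kcnk9. There were 90 such genes in the annotation (GRCm38, RefSeq), among 20665 autosomal protein-coding genes. Of these 90, 82 had at least 1 measured CpG inside the gene or within 2 kb of it, and together they held 2137 CpG sites of 237564 in or near a gene. The 8 without a site were Kcne2, Kcne4, Kcnj13, Kcnj16, Kcnk1, Kcnk5, Kcnmb3 and Kcnrg. The rule takes genes by name and uses no methylation value, although it was set with earlier results of these data known.

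The study asked how obesity of the mother affects the heart of her offspring. It measured DNA methylation by reduced representation bisulfite sequencing (RRBS), in which the enzyme MspI cuts DNA at CCGG and bisulfite converts unmethylated cytosine, so that methylation is read at CpG sites close to such cuts. All 12 mice were wild-type FVB/N, were 3 weeks old, and gave DNA of the left ventricle. The HFD group (3 females, 3 males) had mothers fed the high-fat diet Teklad TD.06415, and the RD group (4 females, 2 males) had mothers fed the regular PicoLab diet 5L0D. Both sets of FVB/NJ mothers started their diet at 6 weeks of age, were mated after 8 weeks to males on the regular diet, and stayed on their own diet. The offspring in both groups therefore differ by the diet of the mother before birth and during suckling, and from weaning on all received the regular diet. Several offspring may share a mother, since the labels tie no mouse to a litter, and p-values then measure only the spread between these mice. Library numbers ran from 2 to 8 in HFD and from 9 to 14 in RD, so library order and diet cannot be told apart. The deposited values are percentages without read counts, so their depth is unknown.

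Potassium channels let potassium ions leave the cell and so bring the membrane back to its resting voltage after an action potential. In heart muscle, several of them act in turn: transient outward channels give the early repolarization, delayed rectifiers end the plateau, and inward rectifiers hold the resting voltage, while the ATP-sensitive channel opens when the cell lacks energy. Many other members of the family work mainly in neurons, glia, endocrine cells or smooth muscle. CpG methylation is usually low at CpG-dense gene starts, whether or not the gene is active, and high inside gene bodies. Methylation levels alone say nothing about the amount of a channel's RNA or protein.

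The promoter sequences of 5 members show the range of CpG density behind the levels given below. Each is 300 bases of the RefSeq table (GRCm38.p6), from 250 bases before to 50 bases after a listed start, written 5′ to 3′ on the gene's strand, with each CG in capitals. Kcnd3, Kcnj2 and Kcnh2 are 3 of the heart channels, and Kcnj4 and Kcnn4 are the members with the lowest and the highest methylation measured in such a window. The windows are chr3:105451640-105451939 (plus strand) for Kcnd3, chr11:111065914-111066213 (plus) for Kcnj2, chr5:24329542-24329841 (minus) for Kcnh2, chr15:79505192-79505491 (minus) for Kcnj4 and chr7:24370013-24370312 (plus) for Kcnn4. The listed starts of Kcnh2, Kcnj4 and Kcnn4 lie inside the annotated gene, not at its outer 5′ end.
Kcnd3: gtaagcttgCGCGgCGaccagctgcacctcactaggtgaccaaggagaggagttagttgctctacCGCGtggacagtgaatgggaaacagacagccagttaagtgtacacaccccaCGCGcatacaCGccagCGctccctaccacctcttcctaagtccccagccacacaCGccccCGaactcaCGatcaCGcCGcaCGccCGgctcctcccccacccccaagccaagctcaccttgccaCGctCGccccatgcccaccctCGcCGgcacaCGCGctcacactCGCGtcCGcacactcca
Kcnj2: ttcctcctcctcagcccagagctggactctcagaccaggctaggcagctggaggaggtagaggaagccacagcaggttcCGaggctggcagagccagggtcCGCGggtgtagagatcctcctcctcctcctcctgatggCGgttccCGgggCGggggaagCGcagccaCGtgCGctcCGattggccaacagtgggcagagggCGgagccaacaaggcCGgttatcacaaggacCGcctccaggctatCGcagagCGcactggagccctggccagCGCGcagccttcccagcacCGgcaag
Kcnh2: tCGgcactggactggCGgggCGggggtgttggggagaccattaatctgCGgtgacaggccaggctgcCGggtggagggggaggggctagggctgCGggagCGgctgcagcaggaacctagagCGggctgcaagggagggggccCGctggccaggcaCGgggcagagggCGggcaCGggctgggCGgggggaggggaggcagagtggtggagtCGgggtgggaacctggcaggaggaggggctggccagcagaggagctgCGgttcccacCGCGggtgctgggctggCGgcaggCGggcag
Kcnj4: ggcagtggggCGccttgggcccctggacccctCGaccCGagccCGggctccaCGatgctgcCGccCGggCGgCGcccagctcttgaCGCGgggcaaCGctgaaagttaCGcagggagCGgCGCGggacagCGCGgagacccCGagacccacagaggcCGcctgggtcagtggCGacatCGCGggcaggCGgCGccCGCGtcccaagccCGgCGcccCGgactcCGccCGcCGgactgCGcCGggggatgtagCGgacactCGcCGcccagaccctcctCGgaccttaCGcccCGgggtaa
Kcnn4: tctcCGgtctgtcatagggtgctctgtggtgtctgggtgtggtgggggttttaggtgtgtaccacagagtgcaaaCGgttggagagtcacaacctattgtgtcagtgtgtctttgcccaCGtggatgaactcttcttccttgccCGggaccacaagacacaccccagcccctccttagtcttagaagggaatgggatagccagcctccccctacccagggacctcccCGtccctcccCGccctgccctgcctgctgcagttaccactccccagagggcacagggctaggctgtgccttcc

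The Kcnj4 window held 41 CG, and its 22 measured sites averaged 0.844% methylation. Kcnn4 held 6 CG, and its 2 measured sites averaged 40.8%. Kcnd3, Kcnj2 and Kcnh2 held 25, 18 and 19 CG, and no measured site lay inside their windows. Over all 93 windows of the 68 members in the table, the median number of CG was 9, against 14 over 20085 windows of autosomal protein-coding genes. At least 1 CG was found in 98.9% of the members' windows and in 95.6% of all windows, and 15 or more in 37.6% and 48.1%. The MspI site CCGG, which reads the same on both strands, was in 63.4% of the members' windows and in 63.5% of all windows. Among members, 25 windows held a measured site. The 17 measured windows with 15 or more CG had a median methylation of 1.63%, with Kcnh1, a voltage-gated channel of neurons, highest at 15.4%. The 8 with 5 to 14 CG had a median of 6.41% and reached 22.0% in Kcnk4, a mechanosensitive 2-pore channel, and 40.8% in Kcnn4, the calcium-activated channel of intermediate conductance. The RefSeq promoter table has no entry for Kcnj11 or Kcne1.

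Methylation was then averaged per gene in each mouse, separately over gene ends (sites within 1 kb of either annotated end, inside or outside) and over gene bodies (all other sites inside the gene), for genes with at least 3 sites of the kind. At gene ends 50 members were measured, with another 9 at 1 or 2 sites. Their median level was 3.25%, with quartiles of 1.66 and 12.2%, and 36 of 50 (72%) lay under 10%, 9 between 10 and 60% and 5 over 60%. Over all 9325 genes with such ends the median was 2.34%, with 77.9% of genes under 10% and 7.53% over 60%. In gene bodies 60 members were measured, with 8 more at 1 or 2 sites, and the median level was 55.8%. Body levels were spread widely, with quartiles of 29.5 and 73.1%: 6 members lay under 10% and 25 (41.7%) over 60%. Over all 7834 genes with such bodies the median was 66.8%, and 56.3% of genes lay over 60%. Of 38 members measured in both, 34 had the higher level in the body, with a median gap of 48.8 percentage points, and among all 4406 such genes 87.4% did, with a median gap of 54.5 points. These comparisons with all genes are descriptions and were not tested. Each level is an average over the cell types of the ventricle, so a change in cell makeup and a change within cells cannot be told apart.

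**Figure D1:**
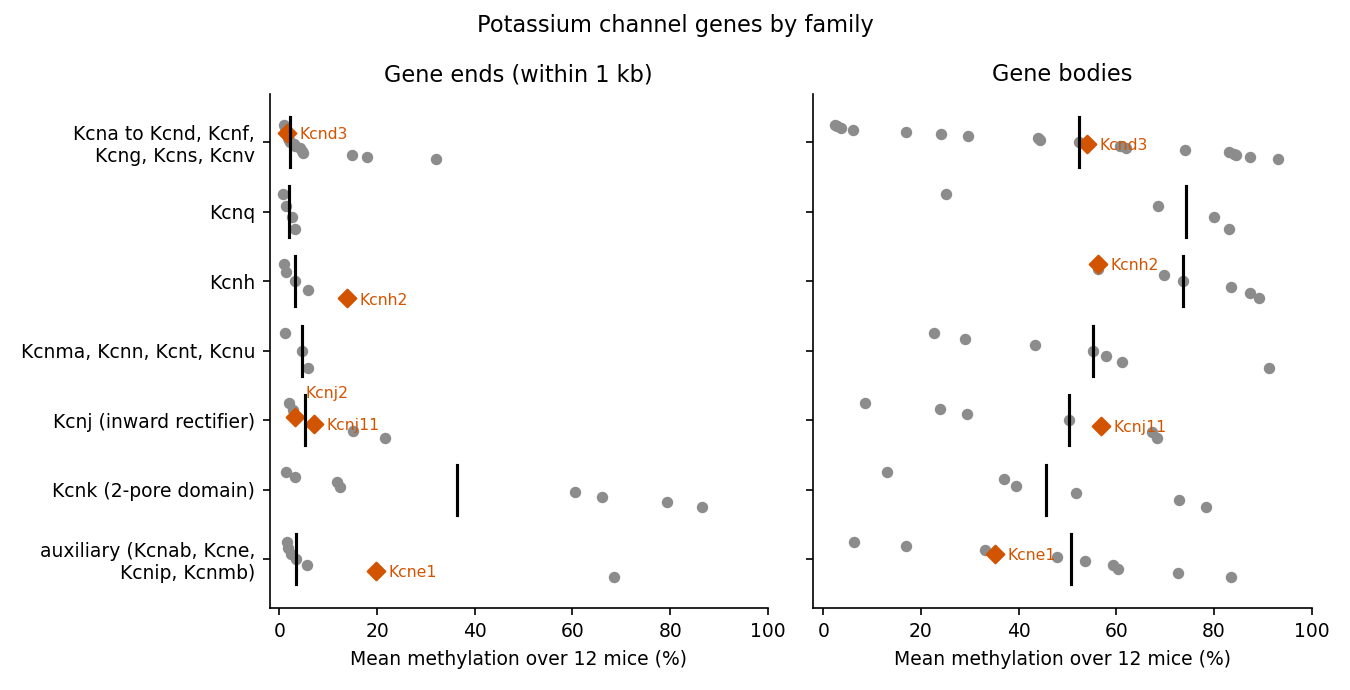
Mean methylation over the 12 mice (%) at gene ends (left) and in gene bodies (right), 1 point per gene with at least 3 sites, by family. Vertical bars are family medians and orange diamonds are the heart channels. Most gene ends sit under 10%. Of the 8 ends of 2-pore channels, 2 are under 10% and 4 over 60%, and their median of 36.4% falls in the gap below those 4. Among the 4, Kcnk13 and Kcnk7 draw on 3′ sites. Bodies spread from 2.48 to 93.1%.

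Gene ends in the voltage-gated families were about as low as those of all genes, of which 77.9% were under 10% (median 2.34%). Of 17 measured ends in the families Kcna to Kcnd, Kcnf, Kcng, Kcns and Kcnv, 14 were under 10% (median 2.23%). In the Kcnh family 4 of 5 ends were under 10% (median 3.12%). All 4 ends of the Kcnq family, which carry slow, non-inactivating currents, lay between 0.742 and 3.30%. The lowest 3 ends belonged to Kcnq3 (0.742% ± 0.493, 9 sites), a subunit of the neuronal M current, to Kcnc4 (0.880% ± 0.896, 18 sites), a fast-inactivating channel, and to Kcnh7 (0.959% ± 0.845, 7 sites), an ERG-type channel (SD, n = 12 each). Of the 8 measured ends of 2-pore channels, which carry background current, 2 were under 10% and 4 over 60%. Among these 4, Kcnk13 was measured at 3′ sites alone and Kcnk7 at both ends. The difference between families was not tested and rests on the window of 1 kb. Within 500 bp, fewer ends had at least 3 sites, and 1 of 37 member ends of any family was over 60% in place of 5 of 50. Kcnk13 had the highest end level at 86.5% ± 2.67 over 5 sites, followed by Kcnk18 at 79.4% ± 1.99 over 13 sites (SD, n = 12). Kcnip1, a calcium-binding partner of Kcnd channels, had 68.6% ± 3.30 at 5 sites, of which 2 also belong to a neighbouring gene. Kcnk10, a mechanosensitive 2-pore channel, had 66.0% ± 5.47 at 3 sites, the largest spread between mice of any member's end. Kcnk7, a 2-pore subunit, followed at 60.4% ± 1.71 over 5 sites, and 3 of these were shared with a neighbouring gene (SD, n = 12 each). The value of Kcnk7 averages 2 unlike places, 2 sites 526 bp inside its 5′ end at 11.1% ± 3.85 and 3 sites past its 3′ end at 93.3% ± 1.45 (SD, n = 12 each). The end of Kcng4, a modulatory subunit, also varied between mice (14.8% ± 4.71 over 3 sites; SD, n = 12).

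Which end was measured differed between members. Where the promoter table gave the strand (68 members, 60 with sites), 5′ ends of 33 members had a median of 3.04%, and 28 of them were under 10%. Of these 5′ ends, 3 were over 60%: Kcnk18 at 79.4%, Kcnip1 at 68.6% and Kcnk10 at 66.0%. Among the 5′ ends of all genes, 89.5% were under 10% and 3.57% over 60%. The 3′ ends of 7 members had a median of 24.7% and ran from 4.08 to 93.3%. All 4 members with at least 3 sites at both, Kcnj4, Kcnk4, Kcnk12 and Kcnk15, had the higher level at the 3′ end. Over all genes, the medians were 1.86% for 6688 5′ ends and 64.8% for 1172 3′ ends. The high end level of Kcnk13 came from its 3′ end alone: the 45 sites at chr12:99965205-99966131, about 2 kb inside its 5′ end, averaged 1.86% ± 1.14 (SD, n = 12). Its body level was accordingly 13.2%, and the gap of -73.4 points between body and end was the lowest of the 38 members.

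Body levels depended on where in the body the sites lay. Body sites within 1 kb of a start that RefSeq lists inside the gene had a mean of 4.93% in members (262 sites), against 58.6% at the other body sites of the same set of genes (596 sites). Across all genes these means were 7.89 and 60.2%. In Kcnq5, a channel of the M-current type, 23 sites near the inner start averaged 0.782% and the other 9 averaged 87.3%. Kcnj4, a strong inward rectifier, had 0.819% at 28 such sites and 79.6% at the other 16. The same split was seen in Kcnk2 (3.83 and 81.3%), a mechanosensitive 2-pore channel, in Kcnma1 (3.30 and 79.2%), the pore of the large-conductance calcium-activated channel, and in Kcnip3 (3.35 and 66.5%), a calcium-binding partner. Kcnip1 combined a methylated outer 5′ end with an inner start at 8.06% (8 sites), while its other 20 body sites averaged 43.2%. Among the 15 members with at least 3 sites of this kind, Kcnh2 was the highest at 72.0%, and the lowest was Kcnq5.

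**Figure D2:**
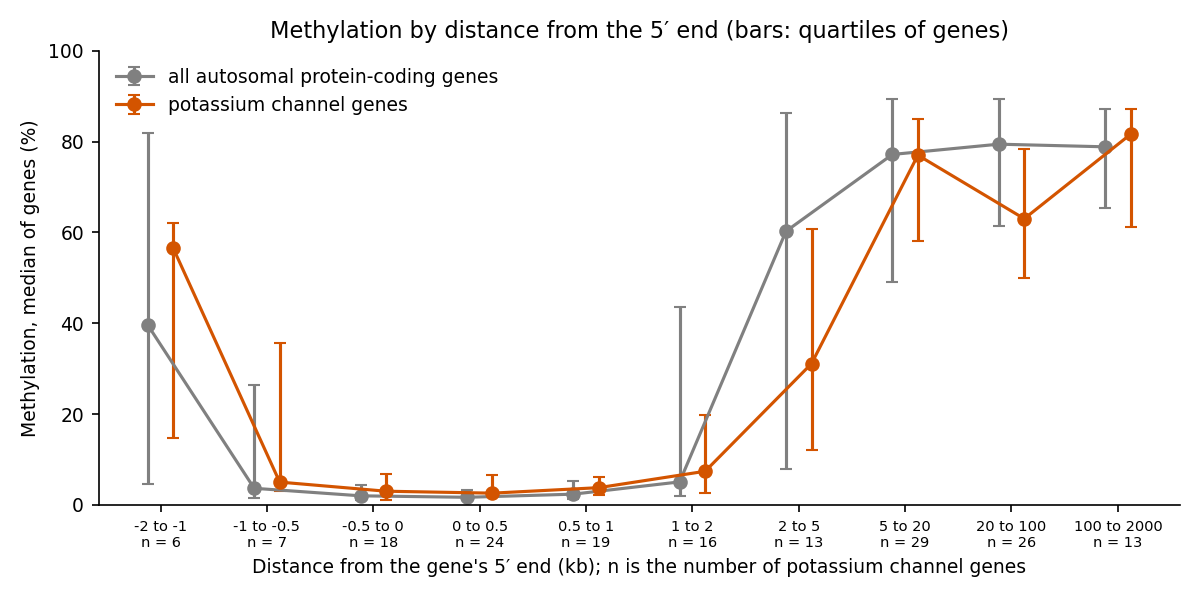
Median methylation of genes (%, points, with quartiles as bars) in bins of distance from the outer 5′ end (kb), for potassium channel genes (orange) and all autosomal protein-coding genes with a listed strand (grey). Medians of the members stay between 2.59 and 5.03% from 1 kb before to 1 kb after the 5′ end and reach 77.0% at 5 to 20 kb inside the gene. They are 63.0% from 20000 to 100000 bp and 81.6% beyond 100000 bp.

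The distance profile covers members with a listed strand. Members had a median of 2.59% in the first 500 bp of the gene (24 members) and of 7.41% at 1 to 2 kb (16 members). At 2 to 5 kb the median of 13 members was 31.1%, against 60.3% for 2124 genes, and at 5 to 20 kb the medians were 77.0 and 77.2%. From 20000 to 100000 bp, 26 members had a median of 63.0%, against 79.4% for 3561 genes. Beyond 100000 bp the medians were 81.6% for 13 members and 78.8% for 1118 genes. Upstream, between 2 and 1 kb before the start, 6 members had a median of 56.5% and 774 genes a median of 39.6%. Few members enter some bins, and these differences were not tested.

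The highest bodies were those of Kcnv2 at 93.1% ± 2.28 over 4 sites, a modulatory subunit best known from the retina, of Kcnt2 at 91.2% ± 2.38 over 4 sites, a sodium-activated channel, and of Kcnh5 at 89.1% ± 0.969 over 11 sites (SD, n = 12 each). Kcnh5 also had the largest gap between body and end, 87.8 points, ahead of Kcnb2 with 85.7 and Kcnh8 with 84.1 points, all 3 voltage-gated channels with ends under 10%. The lowest bodies belonged to Kcns3 (2.48% ± 1.33, 18 sites), a modulatory subunit, and Kcna1 (2.77% ± 1.01, 30 sites), a neuronal delayed rectifier (SD, n = 12 each). Also among the low bodies were Kcnc4 (6.17% ± 0.876, 32 sites) and Kcne3 (6.33% ± 1.52, 14 sites), an auxiliary subunit (SD, n = 12 each). All 18 body sites of Kcns3 lay within 1 kb of a start listed inside the gene, as did 30 of the 32 body sites of Kcnc4. Between mice, the body of Kcnj11 varied most (SD of 11.8 points), followed by Kcnk16 (5.74 points), a 2-pore channel of pancreatic islets, and Kcnip2 (5.50 points), the partner of Kcnd channels in the heart, each from 3 or 4 sites. The median SD over the 60 bodies was 2.07 points.

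The heart channels named for this comparison were Kcnh2, Kcnj2, Kcnd3, Kcnj11 and Kcne1. At gene ends their median was 7.15% (range 1.501 to 19.8%), against 3.18% (0.742 to 86.5%) for the other 45 members, and the 5 took ranks 11, 25, 36, 39 and 43 of 50 from the lowest. In each of the 12 mice the heart median was above that of the others, by 2.14 to 7.07 points. With a broader list of 15 genes of cardiac potassium currents, which adds Kcnd2, Kcnip2, Kcna5 and others and has 9 measured ends, the medians were 2.73 and 3.30%, the opposite order. For bodies, the 4 measured heart channels had a median of 55.1% (35.1 to 57.0%), and the other 56 members had 55.8% (2.48 to 93.1%). All 4 heart bodies lay between 10 and 60%, a range that held 25 of the other 56. The gap at ends, 3.97 points between the medians, also moved with the window: it was 0.734 points with a window of 500 bp and 17.9 points with one of 2 kb. Within 500 bp Kcne1, the highest of the 5 ends, had fewer than 3 sites and was not counted. In bodies the gap of -0.65 points changed sign to 9.62 points when at least 5 sites were asked for, which left out Kcnj11. The 5 were chosen by function with earlier results of these data known, so their levels are given as a description without a test.

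Kcnd3, which forms a channel of the transient outward current, had the lowest end of the 5. Its 6 end sites, all at the 5′ end, averaged 1.501% ± 0.588 (SD, n = 12), and single sites ran from 0.339 to 3.69%. The low stretch went on into the gene: 13 sites at chr3:105452101-105453246, starting 211 bp inside, averaged 2.08% ± 0.561. At 7 sites about 7 kb inside (chr3:105458852-105459079) the level was 90.2% ± 1.98, and at 9 sites about 54 kb inside it was 80.5% ± 2.49. A second low stretch lay deep in the gene, where 7 sites at chr3:105546558-105546745, 94668 bp from the 5′ end, averaged 14.6% ± 3.12, next to 3 sites at 58.8% ± 8.11 and 4 at 82.5% ± 2.30 (SD, n = 12 each). The body average of 54.0% over 39 sites therefore mixes low and high stretches.

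Kcnj2, the inward rectifier that sets the resting voltage of ventricular muscle, was measured at 4 sites only, 443 to 389 bp before its 5′ end (chr11:111065721-111065775). They averaged 3.23% ± 3.67 (SD, n = 12). HFD mice lay at 0 in female 4 and male 2, at 0.781% in female 3, 3.41% in female 2, 6.85% in male 4 and 7.54% in male 3. RD mice lay between 0.641 and 2.44% except for male 2 at 11.9%, and the diets overlapped. Without RD male 2 the mean over 11 mice was 2.45%.

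Kcnh2 encodes the channel of the rapid delayed rectifier current, and its measured end was the 3′ end, with 7 sites at chr5:24320062-24320245. They averaged 13.8% ± 2.41 (SD, n = 12), with single sites between 1.20 and 27.5%. No site was measured within 1 kb of its outer 5′ end. The 7 sites nearest to that end inside the gene, chr5:24348097-24348275 and 3409 bp or more from it, averaged 4.68% ± 2.09, while 2 sites about 1.6 kb upstream averaged 63.0% ± 8.90. Mid-gene levels were high, with 87.1% ± 3.94 at 4 sites (chr5:24332044-24332110), 72.0% ± 8.98 at 3 sites (chr5:24329191-24329209) and 73.1% ± 3.24 at 17 sites (chr5:24325065-24325260). The 3 sites at 72.0% are those nearest to the inner start whose promoter is printed above, so that this start, with 19 CG in its window, lay beside methylated CpG in the ventricle. Toward the 3′ end the level was 24.5% ± 3.70 at 3 sites (chr5:24322149-24322173; SD, n = 12 each).

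Kcnj11 encodes the pore of the ATP-sensitive channel. Its 9 end sites averaged 7.15% ± 1.03 (SD, n = 12) but were of 2 kinds: 7 sites 341 to 275 bp inside the upper-numbered end had 1.21 to 5.87%, and the sites 864 and 717 bp inside had 26.1 and 22.1%. The 4 body sites next to them had 49.8 to 68.1%. The level was thus lowest in the 7 sites nearest that end, higher at the next 2 and highest in the body, with no steady order within each set. Kcne1 encodes the small auxiliary subunit of the slow delayed rectifier and had the highest end of the 5, 19.8% ± 3.41 over 6 sites (chr16:92358900-92359080). Single end sites ran from 9.13 to 40.7%. The 5 body sites about 3 kb further in (chr16:92356074-92356250) averaged 35.1% ± 5.41 (SD, n = 12 each), and 1 site beyond the other end had 87.0%. Neither end nor body of Kcne1 was fully methylated or free of methylation.

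**Figure D3:**
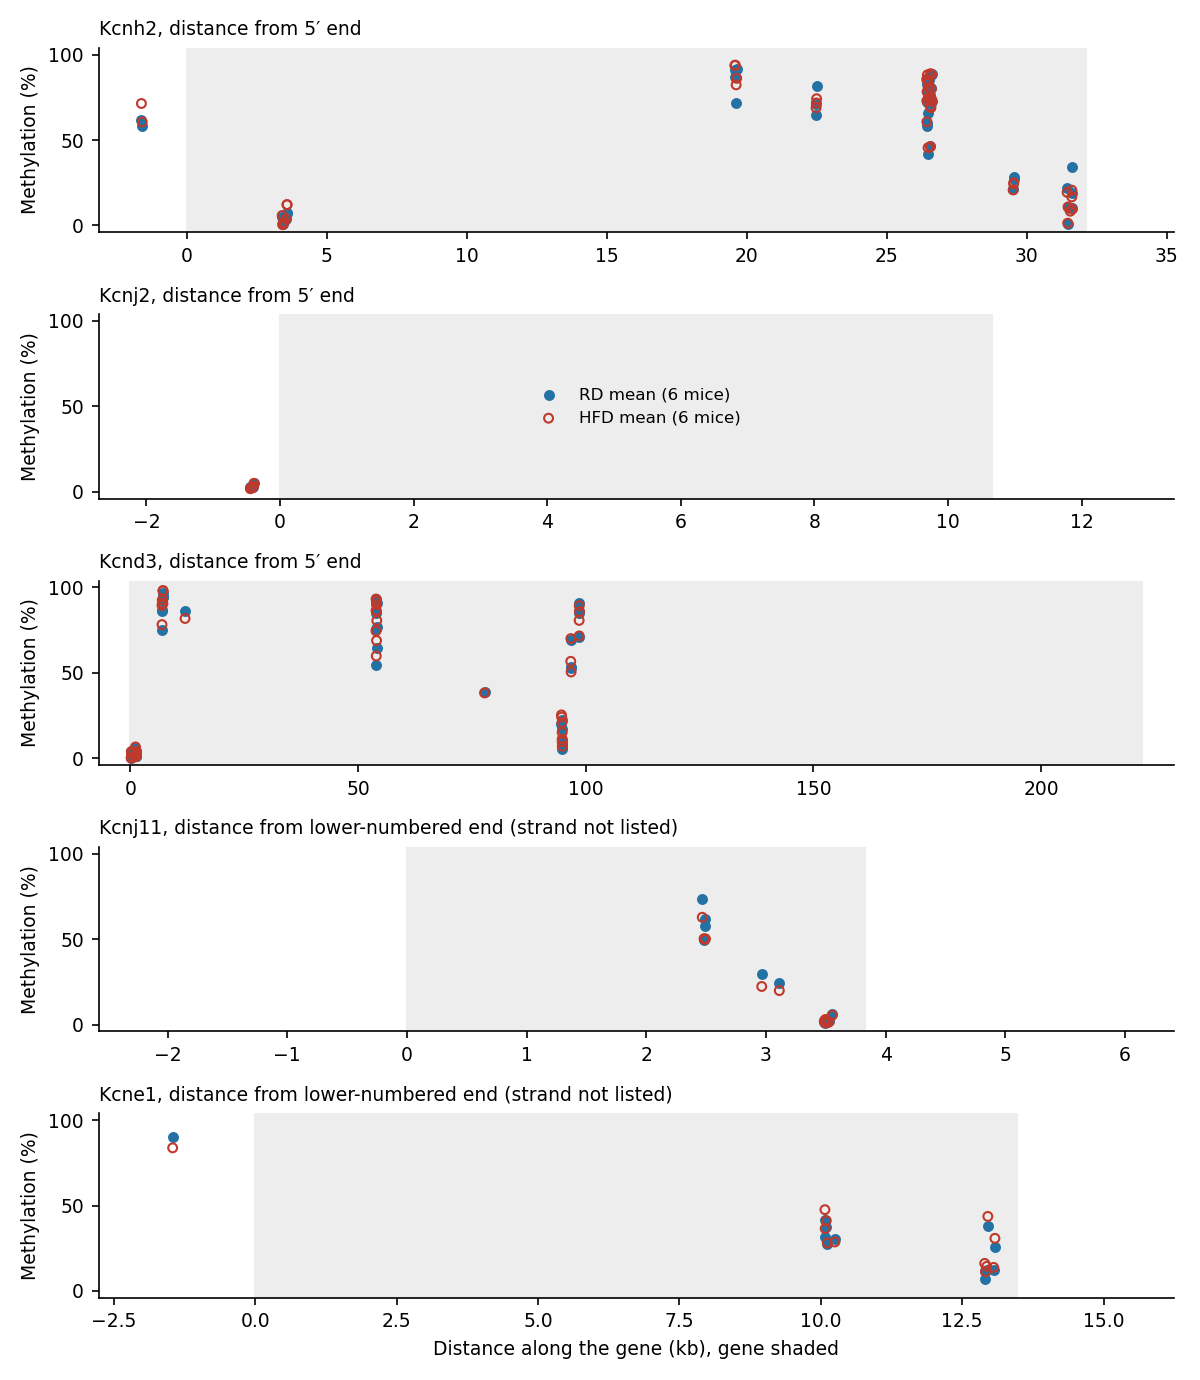
Methylation (%) of each measured CpG of the 5 heart channels against distance along the gene (kb), as the mean of 6 RD mice (filled blue) and of 6 HFD mice (open red), with the annotated gene shaded. Low stretches at or near the 5′ end of Kcnd3, Kcnj2 and Kcnh2 stand beside stretches over 70% inside Kcnd3 and Kcnh2, and the diets lie close together at most sites.

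The diets were compared with limma on log2 ratios of methylated to unmethylated share, with diet and sex as terms and Benjamini-Hochberg adjustment over all genes tested. Only genes with a mean level of 5 to 95% were tested, which kept 18 of the 50 member ends (32 were under 5%) and 57 of the 60 bodies (3 under 5%). A member end under 5%, such as those of Kcnd3 and Kcnj2, was thus outside the test. No member end passed an adjusted p of 0.05 (0 of 18), where 3 of 2875 genes (0.104%) did. Among bodies 0 of 57 members passed, against 11 of 6863 genes (0.16%). At an unadjusted p under 0.05 there were 4 member ends of 18 (7.44% of all genes) and 7 bodies of 57 (8.57% of all genes). When any 1 mouse was left out these counts ran from 1 to 5 ends and from 4 to 7 bodies. The median difference, HFD minus RD, was -0.656 points over the 18 ends and 0.233 points over the 57 bodies, against 0.0239 and -0.227 points over all genes tested. HFD was the lower diet at 12 of the 18 ends (66.7%) and 25 of the 57 bodies (43.9%), against 49.3% of all ends and 56.5% of all bodies tested. With the members under 5% included, HFD was lower at 27 of 50 ends (median difference -0.157 points) and in 26 of 60 bodies (0.198 points).

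The smallest p among ends was that of Kcne1. Its level was 17.4, 21.3 and 25.3% in the lowest, median and highest HFD mouse, and 12.5, 18.4 and 20.7% in the RD mice. Most HFD mice thus lay above most RD mice, with overlap, and HFD was higher at all 6 end sites, at 4 of the 5 body sites and not at the single site beyond the other end (83.8% in HFD, 90.2% in RD). The means were 21.7% ± 2.80 in HFD and 17.8% ± 2.94 in RD (SD, n = 6 each), a difference of 3.90 points (log2 ratio 0.35 ± 0.0963 SE). The adjusted p with limma was 0.432, the lowest of any member end. The body of Kcne1 had 36.4% ± 3.76 and 33.7% ± 6.77 (SD, n = 6 each; adjusted p = 0.844 with limma). Its difference of 2.69 points was 1.05 without RD female 4, 1.48 without HFD female 2, 1.56 without RD male 2 and 4.76 without RD female 1. At the end of Kcnh2 the HFD mice had 9.02, 13.2 and 14.9% and the RD mice 12.97, 15.1 and 17.3%. This difference of -2.86 points was in the other direction, with overlap and with HFD lower at 5 of 7 sites (adjusted p = 0.644, limma). Kcnj11 had 5.46, 6.53 and 7.61% in HFD and 6.24, 7.79 and 9.07% in RD at its end, a difference of -1.21 points (adjusted p = 0.644, limma). Its body, with wide scatter, had 53.3% ± 13.9 and 60.6% ± 8.99 (SD, n = 6 each; adjusted p = 0.806, limma), and its difference of -7.33 points was -2.94 without HFD female 4, the lowest mouse at 31.3%. The ends of Kcnd3 (1.33% ± 0.541 and 1.67% ± 0.631) and Kcnj2 (3.10% ± 3.42 and 3.36% ± 4.22) differed by less than their SD (n = 6 each), and without RD male 2 the RD mean of Kcnj2 was 1.66% ± 0.778 (SD, n = 5), which turned the difference, HFD minus RD, from -0.267 to 1.43 points. In the bodies of Kcnd3 and Kcnh2 the differences were 1.05 and 1.36 points (adjusted p = 0.820 and 0.748, limma), and that of Kcnh2 was 0.737 without HFD female 3 and 0.898 without RD male 1.

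**Figure D4:**
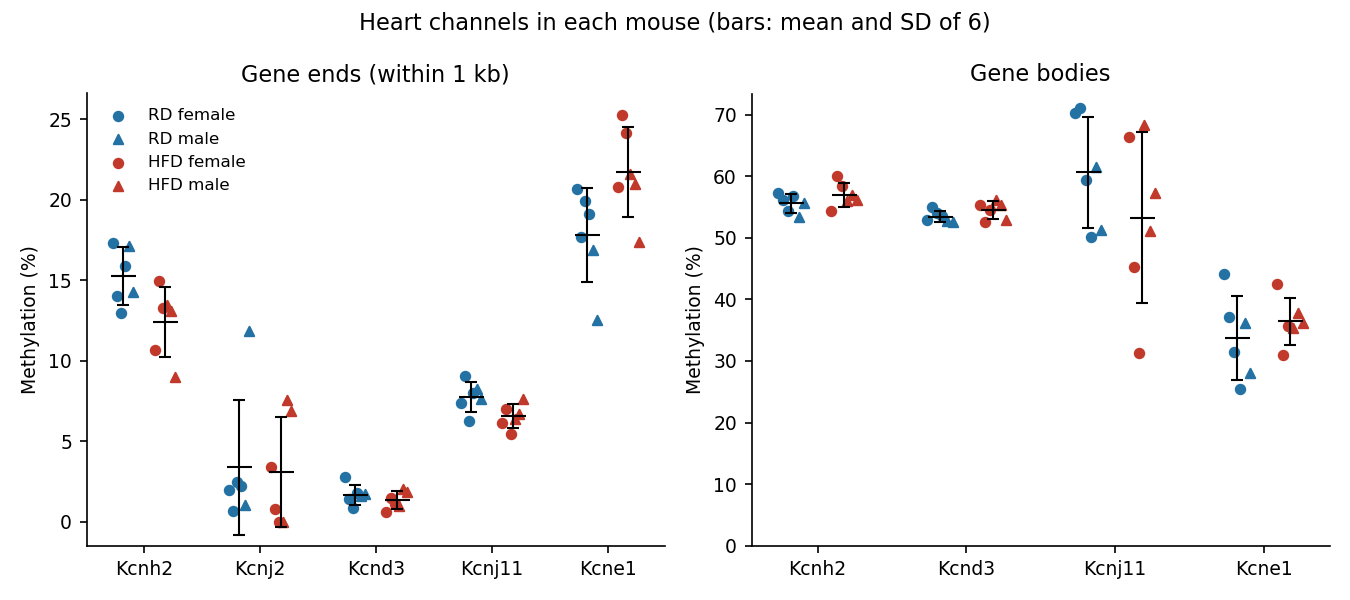
Methylation (%) of the heart channels in each mouse at gene ends (left) and in gene bodies (right). Points are mice (circles female, triangles male; blue RD, red HFD) and black bars are the mean and SD of 6 mice; the diets overlap in every panel column, and RD male 2 stands apart at the end of Kcnj2 (11.9%).

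Among the other ends, Kcnk18, a 2-pore channel of sensory neurons, had 78.1% ± 1.78 in HFD and 80.7% ± 1.30 in RD (adjusted p = 0.600), and Kcnn3, a small-conductance calcium-activated channel, had 5.13% ± 1.24 and 6.46% ± 1.11 (SD, n = 6 each; adjusted p = 0.743, limma). Among bodies, the smallest p was that of Kcnd2, the other pore gene of the transient outward current. Its 3 body sites had 72.5, 77.0 and 79.6% in the lowest, median and highest HFD mouse and 69.9, 71.7 and 73.2% in RD, a difference of 4.89 points (log2 ratio 0.29 ± 0.0696 SE, adjusted p = 0.270, limma). The groups overlapped only at the edge, but 3 sites carry the value. Its end of 11 sites, by contrast, had 0.872% ± 0.493 and 1.25% ± 1.20 (SD, n = 6 each) and was under the tested range. Kcnc4 was the single tested member whose diets did not overlap: its body had 6.36, 6.84 and 7.54% in HFD and 4.68, 5.50 and 5.82% in RD, a difference of 1.47 points (adjusted p = 0.270, limma). All genes gave 0.714% without overlap among bodies and 0.487% among ends, where no tested member end was of this kind. Kcna5, the channel of the ultrarapid delayed rectifier, differed in the other direction. Its 5 body sites (chr6:126533793-126533867, 1688 bp inside the 5′ end) had 35.3, 41.9 and 44.6% in HFD and 44.3, 48.4 and 52.99% in RD, a difference of -7.69 points (log2 ratio -0.39 ± 0.109 SE, adjusted p = 0.391, limma). Kcnj10, a glial inward rectifier, had 69.3% ± 2.67 and 65.4% ± 3.42 (adjusted p = 0.562), and Kcnk16 had 75.2% ± 1.64 and 81.6% ± 6.68 (SD, n = 6 each; adjusted p = 0.572, limma). None of these differences passed the threshold.

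**Figure D5:**
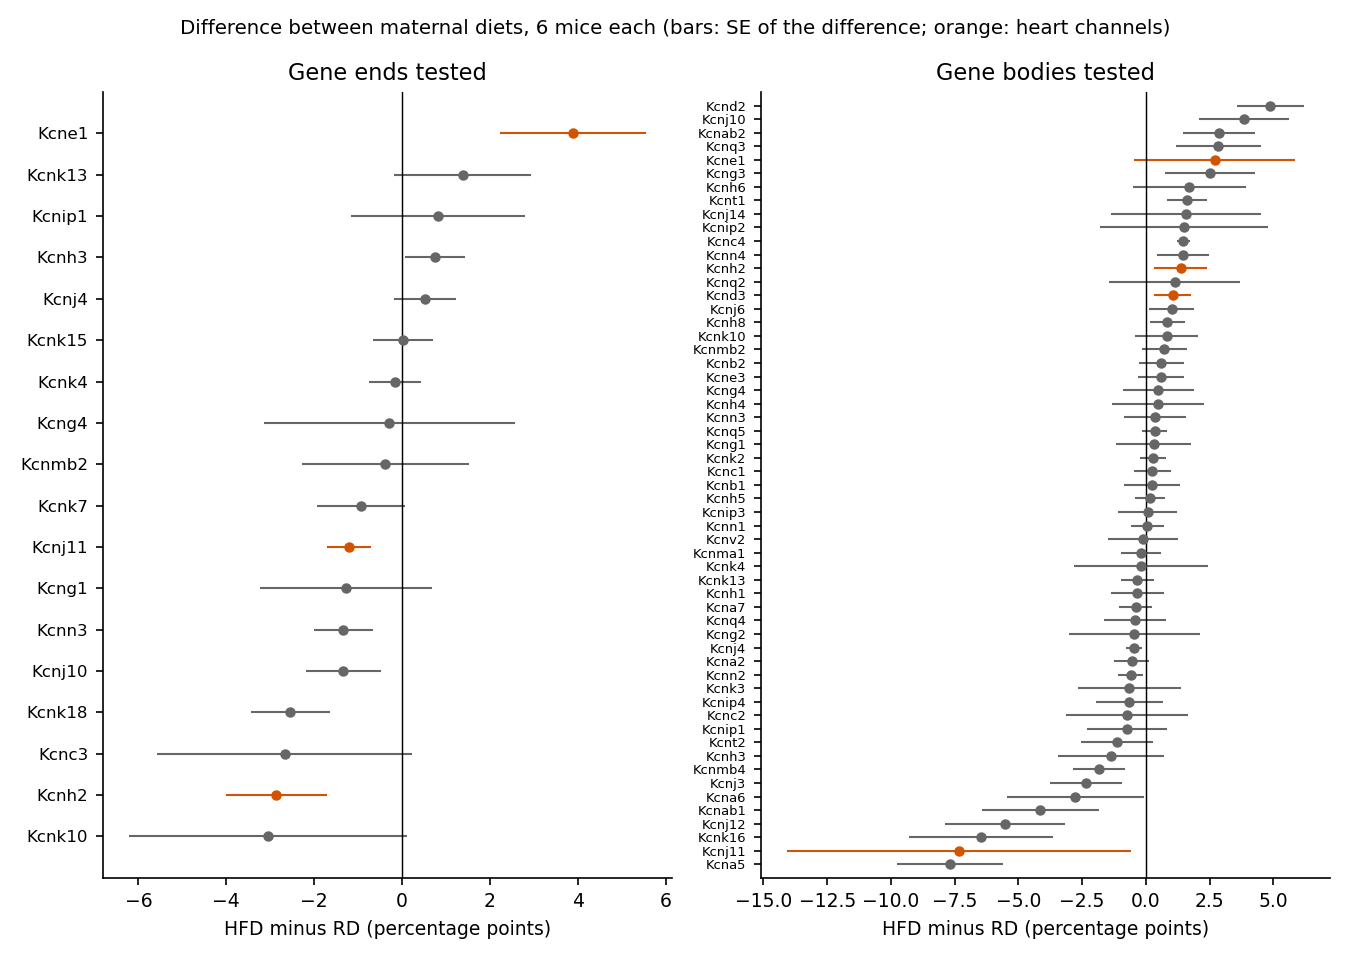
Difference in mean methylation, HFD minus RD (percentage points), for the 18 member ends (left) and the 57 member bodies (right) that were tested, with bars of 1 SE of the difference between 6 and 6 mice and heart channels in orange. Ends run from -3.05 to 3.90 points and bodies from -7.69 to 4.89 points, and no member passed the adjusted threshold.

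Single sites and 500 bp tiles gave the same count. At 1043 tested sites of members 0 passed (0.0102% of 157523 sites did) and 54 had an unadjusted p under 0.05 (6.53% of all sites). At 145 tested tiles 0 passed (0.0294% of 23791 tiles did) and 11 had an unadjusted p under 0.05 (7.81%). No member tile was without overlap (0.626% of all tiles), and 2 sites were (0.482% of all sites). Both were named after their values were seen. One, at chr3:31903566 in or near Kcnmb2, an auxiliary subunit of the large-conductance channel, had 21.6% ± 1.83 in HFD and 15.3% ± 1.60 in RD. The other, at chr6:126533846 in Kcna5, had 42.5% ± 3.11 and 50.5% ± 3.20 (SD, n = 6 each; adjusted p = 0.718 and 0.777, limma). The 3 member tiles with the smallest p lay at the 5′ end of Kcnk18 (chr19:59220007-59220029), in the body of Kcnj6, a G-protein-gated rectifier (chr16:94965650-94965691), and in the body of Kcnt1, a sodium-activated channel (chr2:25912110-25912130). In Kcnk18 the tile had 83.6% ± 8.26 in HFD and 93.1% ± 2.30 in RD (adjusted p = 0.403), with HFD male 3 lowest at 69.1%. Kcnj6 had 83.9% ± 1.96 and 78.7% ± 2.48, and Kcnt1 had 88.1% ± 3.25 and 82.6% ± 2.51 (SD, n = 6 each; adjusted p = 0.434 and 0.436, limma). Among the 3 sites with the smallest p were chr19:59220018 in Kcnk18 (80.5% in HFD against 96.3% in RD) and chr7:24377465 in Kcnn4 (13.3 against 7.23%), with adjusted p of 0.604 and 0.624 (limma).

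Neither sex nor its interaction with diet gave a called member. For the interaction 0 of 18 ends and 0 of 57 bodies passed (0% of all genes in both), with 1 end and 2 bodies at an unadjusted p under 0.05 (5.5% and 4.68% of all genes). The smallest interaction p of ends and of bodies was that of Kcnh3, a neuronal channel. Its body had 78.9% ± 2.12 (n = 3) in HFD females and 84.1% ± 1.01 (n = 4) in RD females, but 86.8% ± 3.30 (n = 3) in HFD males and 84.5% ± 1.30 (SD, n = 2) in RD males (adjusted p = 0.992, and 0.736 for its end, limma). For sex, 0 of 18 and 0 of 57 passed (0.0696% of all ends and 0.0146% of all bodies), with 1 and 2 at an unadjusted p under 0.05 (7.03% and 5.3%). The smallest sex p of ends was again that of Kcne1, with 21.1% ± 2.72 in 7 females and 17.9% ± 3.65 in 5 males (SD; adjusted p = 0.543, limma). Among bodies it was that of Kcnd2, with 72.4% ± 2.09 in females and 76.2% ± 3.75 in males (SD, n = 7 and 5; adjusted p = 0.869, limma).

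Genes that work with these channels were followed as a list of 23 partners: the sulfonylurea receptor subunits of the ATP-sensitive channel, further auxiliary and scaffold proteins, the pacemaker (Hcn) and other channel genes, and transcription factors of the conduction system. No partner passed the diet test at 8 tested ends or 16 tested bodies, with 1 of each at an unadjusted p under 0.05. Over all genes, 0.104% of ends and 0.16% of bodies passed, and 7.44% and 8.57% had an unadjusted p under 0.05. Abcc8 and Abcc9, the sulfonylurea receptors that assemble with Kcnj11, had ends at 1.51% and 4.19% and bodies at 74.4% and 74.0%. Dpp6, a partner of Kcnd channels, had 11.4% at its end and 37.2% in its body.

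Between 385299 and 417081 sites had a value in each mouse, and the mean over the members' sites was 27.6 to 29.2%. Marker genes of other cell types were measured beside the diet comparison, since the ventricle holds several. Of 7 endothelial markers, 1 end (27.9% in HFD, 37.7% in RD) and 4 bodies (medians of 46.9 and 54.8%) were measured, all lower in HFD, with differences from -9.86 to -1.04 points, and the end and 3 of the 4 bodies had an unadjusted p under 0.05, as 7.44% of all ends and 8.57% of all bodies did. None of the 5 passed the adjusted threshold. Cardiomyocyte markers differed by -3.81 to 1.26 points at 3 ends and by -1.66 to -1.08 points in 3 bodies. Fibroblast markers differed by 0.529 points at 1 end and by -2.13 to 0.0175 points in 3 bodies, the 1 measured immune marker by -0.618 points, and neuronal or Schwann cell markers by 0.812 to 1.25 points at 3 ends and -5.23 to 0.990 points in 4 bodies. Whether these markers take part in any difference of a potassium channel gene was not tested. Methylation of cardiomyocyte genes is no check of the tissue label by itself. Their 3 measured ends differed widely, with 69.2% in Myh6, a defining gene of heart muscle, 48.3% in Tnnt2 and 6.51% in Actn2.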

How the data were processed

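CpG methylation was measured by RRBS in 12 left ventricles. The authors deposited 1 table with a row per CpG position (421177 sites) and a column per mouse, and per the file headers it holds methylation rates, here in percent, as values up to 100 show. Per the submitters' processing notes, FastQC, Trim Galore, Bismark 0.19 and limma were used, with the mouse build mm10 (GRCm38). The coverage minimum and the treatment of strands are not given in the sources used here. Read counts are not in the table, which leaves the depth of single values unknown and gives them no interval. All columns were mapped to a mouse by title (0 unmapped).

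Sites with a value in all 12 mice (306534 on autosomes) were placed on RefSeq genes of GRCm38.p6 with Python 3.11.15 and pandas 2.3.3. Sites within 1 kb of either annotated end counted as gene ends and other sites inside the gene as bodies, a site near several genes counting for each. Rates as fractions were turned into log2((rate + 0.05)/(1 - rate + 0.05)) and fitted with limma 3.58.1 (R 4.3.3), diet and sex being additive terms and the interaction coming from a model with 1 mean per group. Features with at least 3 sites (single sites apart) and a mean of 5 to 95% were tested, two-sided, with Benjamini-Hochberg adjustment over all features and a threshold of 0.05. The fits were tested on simulated data. Figures were drawn with matplotlib 3.10.9.

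The members and all gene lists were chosen with earlier results of these data known. Genes were named by rule: the heart channels, the highest and lowest ends and bodies, the widest gaps and spreads between mice, and the smallest p of each test. Examples of inner starts, 5′ and 3′ ends and partners were named after their values were seen. Equal replicate numbers in the groups were not taken to pair the mice. Alternatives covered the offset, scale, limits on level and number of sites, missing values, window, shared sites, averaging, variance model, sex term, replicate block and leaving out each mouse. Values of some genes are counted in the totals but not reported here by name.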

Additional observations from a re-analysis of the deposited data

Results flagged for a closer look

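A mouse was picked out where its gap to the nearest other mouse of the same diet took up an unusually large part of the diet's range by Dixon's test at 95%. The named members gave 70 groups of 6 values, of which 3 had such a mouse, and chance gives about 1 in 20, here 3.5. RD male 2 had 11.9% at the end of Kcnj2, where the other 5 RD mice had 0.641 to 2.44%, and this value rests on 4 sites. At the end of Kcnh7, RD female 4 had 2.81% and the other RD mice had 0 to 1.05%. In the body of Kcnv2, HFD male 2 had 88.4% and the other HFD mice had 93.4 to 95.03%. No sex or interaction test of a member passed its threshold.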

How the results depend on the processing

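The count of members past the threshold was 0 for diet, sex and their interaction under every alternative run, the replicate block included, and each diet difference of a tested end or body that was recomputed kept its direction. The ends of Kcnj2 and Kcnd3, under the tested range, were not recomputed under all of these, and without RD male 2 the difference at Kcnj2 turned from -0.267 to 1.43 points. Sizes moved more: with windows of 500 bp and 2 kb the end of Kcnh2 (-2.86 points) had -5.42 and -0.901, and within 2 kb the ends of Kcne1 (3.90), Kcnj11 (-1.21) and Kcnn3 (-1.33) had 2.42, -3.09 and -0.726. With tile means the ends of Kcnj11 and Kcnn3 had -2.92 and -0.748 and the bodies of Kcnd3 (1.05) and Kcnh2 (1.36) 0.485 and 0.756, and with missing values allowed the body of Kcnk16 (-6.46) had -4.14. The adjusted p of Kcne1 at its end ranged from 0.322 to 0.641 over 25 alternatives, that of the Kcnd2 body from 0.149 to 0.659 over 26 (limma). The labels do not say whether equal replicate numbers pair the mice. Over 13 pairs with equal numbers, deviations from the group mean correlated at -0.186 to 0.0890, and over 40 pairs with unlike numbers at -0.258 to 0.324. Deviations within groups of 2 to 4 mice are tied to each other, so these correlations cannot exclude a pairing. With the block 1 member end in place of 4 had an unadjusted p under 0.05. Over all genes, 1 end was called with the block in place of 3 and 1 body in place of 11. Leaving out 1 mouse gave 1 to 5 ends and 3 to 11 bodies, and leaving out 1 RD male leaves 1 in that group, which is then assumed to vary like the others.

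Levels moved with the definition of ends and bodies. The heart minus other gap at ends (3.97 points) was 7.45 with at least 5 sites, 0.734 within 500 bp, 17.9 within 2 kb, 9.92 with tile means, 1.25 with the median of sites and -0.562 with the broader heart list, chosen after seeing the data. In bodies (-0.65) it was -3.43 with at least 1 site, 9.62 with at least 5, 4.93 and -5.13 with windows of 500 bp and 2 kb, and -7.49 with tile means. The median member end (3.25%) was 4.23% with missing values allowed, 2.22 and 5.02% with windows of 500 bp and 2 kb, and 2.03% with the median of sites. The median body (55.8%) was 46.1% with at least 5 sites, 44.6 and 60.8% with those windows, 61.5% with tile means and 64.5% with the median of sites. Within 500 bp, 1 of 37 ends was over 60% in place of 5 of 50. With the median of sites 14 of 60 bodies were under 10% in place of 6. With at least 5 sites 15 of 46 bodies were over 60% in place of 25 of 60. The genes measured changed with the setting as well. Kcne1 had fewer than 3 end sites within 500 bp, and the end of Kcnj2 and the body of Kcnj11 had fewer than 5 sites. The share of these shifts due to the change of genes was not tested. The planned coverage minimum for single sites was not run because no coverage is given, and depth limits single values to an unknown degree.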

Other observations

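Several genes had a low stretch deep inside, either away from a start that RefSeq lists or next to one. In Kcnn4, the calcium-activated channel of intermediate conductance whose window around the listed start had 40.8%, 16 sites at chr7:24377446-24377633 averaged 9.80% ± 2.03 (SD, n = 12), 7620 bp inside the gene, with 2 sites at 58.2% before them and 3 at 91.3% beyond. None of these sites lay within 1 kb of a start listed inside the gene. Kcnj3, a G-protein-gated rectifier of atrial muscle and neurons, had 12 body sites in a single cluster 25048 bp inside the gene (chr2:55436846-55437841), and they averaged 8.49% ± 2.64. The cluster follows a start that RefSeq lists inside the gene, with 1 site within 1 kb of it (3.18%) and 11 further on (8.98%). In Kcna2, a neuronal delayed rectifier, 7 sites 11023 bp inside (chr3:107101906-107102241) had 2.26% ± 1.12, and these all lay within 1 kb of a listed start. Their levels were 2.02% in HFD and 2.51% in RD. The levels of the Kcnn4 stretch were 10.9% in HFD and 8.73% in RD, and those of Kcnj3 were 7.32 and 9.67% (body, limma adjusted p = 0.692). These genes were chosen after their values were seen.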
